A study of Mus musculus with 2 samples.

Results

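The genes of the cytosolic ribosomal proteins were examined in open chromatin maps of mouse neutrophils. Members were the protein-coding genes of GENCODE M21 whose symbol is Rpl or Rps followed by a number and at most 1 of the letters a, x, y or l, together with Rplp0, Rplp1, Rplp2 and Rpsa. The rule took 80 of 21938 protein-coding genes, 49 of the large subunit and 31 of the small subunit, on 19 chromosomes. It used names alone, and no measured value. The maps came from ATAC-seq, in which a transposase cuts and tags DNA that is not wrapped up in chromatin, so that sequenced fragments pile up into peaks at accessible sites. There was a single group, neutrophils taken as primary cells from peripheral blood of C57BL/6J mice of 5 to 6 weeks, with no treatment or genotype named. It had 2 biological replicates of 50000 cells each. The labels give a biosample record for each replicate but the same donor record for both, so separate animals cannot be assumed. With 1 group there was no comparison between conditions, and every value below describes these 2 libraries.

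The cytosolic ribosome is built from a large and a small subunit, each an assembly of ribosomal RNA and many small proteins that are needed in nearly equal amounts. Their genes are scattered over the genome, and their promoters are known for short GC-rich stretches, a start site inside a run of pyrimidines, and sites of widely expressed factors such as GABP, YY1 and SP1. The messenger RNAs begin with that pyrimidine run, the 5′ terminal oligopyrimidine (TOP) tract, through which the kinase complex mTORC1 and the protein LARP1 control their translation. A few members have a close copy that is used in other tissues, above all in testis and striated muscle. Mature neutrophils are cells that have left the cell cycle and are known for a low content of ribosomes and RNA, so that open promoters in them do not by themselves report how much ribosome is made.

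The sequences below show the promoters that the results turn on. They are taken from RefSeq promoters on GRCm38.p6, where 60 of the 80 members were matched, and run 5′ to 3′ to at most 28 bases past the annotated start. The first set holds the 3 members with the highest mean signal in the peak lists, Rpl31, Rpl11 and Rpl9, then Rps27l and Rpl15. Capitals mark the ETS string CCGGAAG that factors such as GABP bind, which Rpl9 lacks in this window and Rpl15 has at 2 places.
Rpl31, chr1:39367742-39367869, plus strand, GRCm38.p6: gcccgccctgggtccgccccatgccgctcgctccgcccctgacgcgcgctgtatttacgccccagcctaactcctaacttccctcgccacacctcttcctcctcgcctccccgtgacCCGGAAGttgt
Rpl11, chr4:136053366-136053493, minus strand, GRCm38.p6: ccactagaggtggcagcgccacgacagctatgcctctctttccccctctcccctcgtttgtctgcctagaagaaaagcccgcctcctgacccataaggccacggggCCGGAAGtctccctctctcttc
Rpl9, chr5:65391417-65391544, minus strand, GRCm38.p6: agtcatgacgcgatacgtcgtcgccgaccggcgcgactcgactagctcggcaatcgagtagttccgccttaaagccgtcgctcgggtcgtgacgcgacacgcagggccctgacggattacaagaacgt
Rps27l, chr9:66945986-66946113, plus strand, GRCm38.p6: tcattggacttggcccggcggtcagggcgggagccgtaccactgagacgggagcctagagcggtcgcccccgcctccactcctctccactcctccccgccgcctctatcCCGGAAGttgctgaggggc
Rpl15, chr14:18271040-18271167, minus strand, GRCm38.p6: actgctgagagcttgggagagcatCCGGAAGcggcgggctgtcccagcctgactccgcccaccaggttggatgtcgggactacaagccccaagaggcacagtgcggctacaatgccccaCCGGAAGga

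The second set holds 4 of the 9 members with the palindrome CTCGCGAG, the core of a string recognised by the factor ZBTB33 (Kaiso) and the string whose share differed most, as a ratio, from other genes among those common to 5 or more members. Capitals mark it and, in Rps6 and Rpl26, the ETS string.
Rps6, chr4:86857385-86857512, minus strand, GRCm38.p6: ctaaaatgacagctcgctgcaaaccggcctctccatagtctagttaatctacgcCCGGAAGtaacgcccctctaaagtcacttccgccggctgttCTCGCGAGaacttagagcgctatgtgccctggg
Rpl10a, chr17:28328465-28328592, plus strand, GRCm38.p6: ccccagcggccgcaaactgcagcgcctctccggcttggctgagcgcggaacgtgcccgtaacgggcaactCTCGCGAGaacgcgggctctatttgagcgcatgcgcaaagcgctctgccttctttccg
Rps28, chr17:33824535-33824662, minus strand, GRCm38.p6: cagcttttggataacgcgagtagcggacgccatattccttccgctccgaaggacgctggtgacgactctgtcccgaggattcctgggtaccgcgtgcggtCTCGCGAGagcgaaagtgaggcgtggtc
Rpl26, chr11:68901466-68901593, plus strand, GRCm38.p6: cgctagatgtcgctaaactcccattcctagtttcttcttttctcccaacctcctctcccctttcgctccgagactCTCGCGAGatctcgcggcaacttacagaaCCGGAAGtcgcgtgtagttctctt

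The third set shows the TOP-like starts of Rps24, Rps21 and Rpl4, with the first C and the pyrimidines after it in capitals.
Rps24, chr14:24490618-24490745, plus strand, GRCm38.p6: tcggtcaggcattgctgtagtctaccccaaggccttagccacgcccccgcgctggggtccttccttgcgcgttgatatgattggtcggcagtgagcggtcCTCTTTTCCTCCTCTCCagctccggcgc
Rps21, chr2:180257277-180257404, plus strand, GRCm38.p6: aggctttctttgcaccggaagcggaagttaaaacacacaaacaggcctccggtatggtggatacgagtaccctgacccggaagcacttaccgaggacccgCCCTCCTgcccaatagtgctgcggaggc
Rpl4, chr9:64173275-64173402, plus strand, GRCm38.p6: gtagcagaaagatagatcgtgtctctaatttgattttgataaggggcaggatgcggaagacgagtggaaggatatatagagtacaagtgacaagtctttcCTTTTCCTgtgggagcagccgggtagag

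The last set places members at the low end and members with no peak beside open relatives. Rps15a had one of the lowest mean signals of the members open in both replicates, Rps27 and Rpl10 are the open relatives of Rps27l and Rpl10l, and Rpl10l, Rpl39l and Rpl3l had no promoter peak. Capitals mark the YY1 string AAGATGGC in Rps27 and the ETS string in Rpl39l.
Rps15a, chr7:118116161-118116288, minus strand, GRCm38.p6: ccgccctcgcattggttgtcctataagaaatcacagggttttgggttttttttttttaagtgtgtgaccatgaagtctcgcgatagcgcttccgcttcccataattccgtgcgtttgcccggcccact
Rps27, chr3:90213624-90213751, minus strand, GRCm38.p6: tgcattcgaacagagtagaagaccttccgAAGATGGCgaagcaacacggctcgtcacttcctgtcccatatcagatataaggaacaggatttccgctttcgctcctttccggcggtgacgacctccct
Rpl10, chrX:74270716-74270843, plus strand, GRCm38.p6: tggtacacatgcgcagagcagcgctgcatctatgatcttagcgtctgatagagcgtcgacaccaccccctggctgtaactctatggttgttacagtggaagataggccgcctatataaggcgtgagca
Rpl10l, chr12:66284374-66284501, minus strand, GRCm38.p6: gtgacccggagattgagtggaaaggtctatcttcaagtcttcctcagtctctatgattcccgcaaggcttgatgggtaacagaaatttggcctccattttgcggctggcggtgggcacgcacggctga
Rpl39l, chr16:10170128-10170255, plus strand, GRCm38.p6: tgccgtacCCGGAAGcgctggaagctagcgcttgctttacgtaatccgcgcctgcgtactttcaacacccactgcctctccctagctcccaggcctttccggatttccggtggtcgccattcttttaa
Rpl3l, chr17:24727720-24727847, plus strand, GRCm38.p6: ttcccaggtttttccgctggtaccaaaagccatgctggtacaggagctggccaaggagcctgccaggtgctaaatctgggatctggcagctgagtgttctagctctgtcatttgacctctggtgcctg

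Nearly every member had an open promoter. A promoter was called open when a listed peak overlapped 1 kb on either side of any annotated start of the gene. In the list of replicate 1, thresholded by the authors on the irreproducible discovery rate (IDR), 77 of 80 members were open (96.2%), where 47.1% of all protein-coding genes were. In replicate 2 it was 76 members (95.0%), against 40.3% of all genes. The same 76 were open in both replicates, against 39.8% of all genes. The list passing IDR between replicates, called the pooled list below, held 77 members, against 46.8% of all genes. The members' share thus lay far above the background in each list, and these are counts of genes in 2 libraries, not a test.

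**Figure D1:**
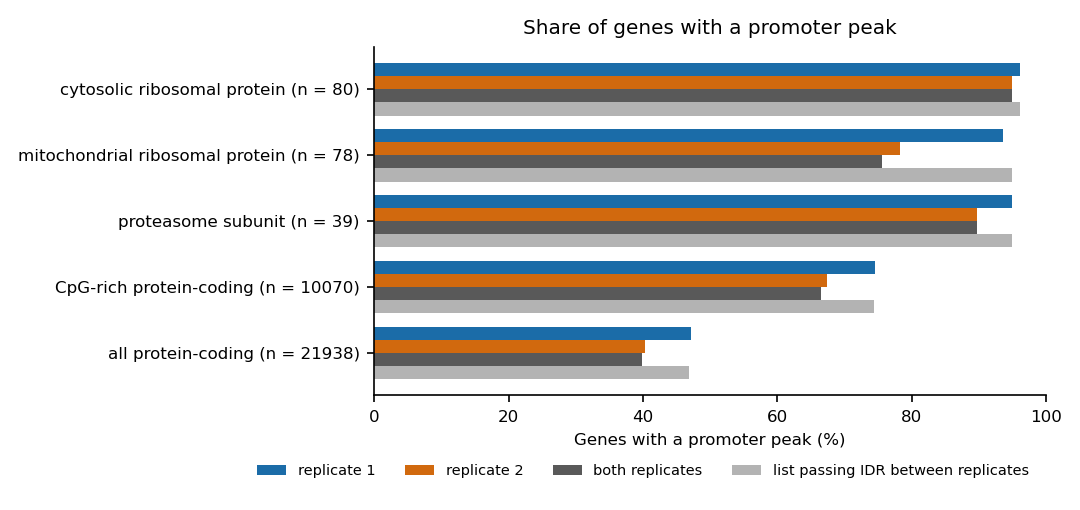
Share of genes with a promoter peak, in percent on the horizontal axis, for 5 groups of genes with their number in parentheses. Bars give the list of each replicate, both replicates together and the pooled list, and the cytosolic ribosomal protein genes reach 95.0% in both replicates against 39.8% of all protein-coding genes.

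The background depends on the kind of promoter. Of the members, 69 (86.2%) had a CpG-rich promoter, meaning that within 500 bp of the reference start, the start of the gene's principal transcript, GC reached 50% and the observed CpG count 0.6 of that expected. Among all genes 45.9% did, and among the 10070 genes with such a promoter 66.5% were open in both replicates, still below the members. The 78 genes of the mitochondrial ribosome, a separate set of proteins for the ribosome inside mitochondria, were CpG-rich at 84.6%. They were open at 73 genes in replicate 1 and at 61 in replicate 2, and 59 (75.6%) were open in both. The 39 genes of the proteasome, the complex that degrades tagged proteins, gave 37 and 35, with 35 (89.7%) open in both. The cytosolic members therefore counted 1 gene fewer in replicate 2 than in replicate 1, the mitochondrial set 12 and the proteasome set 2.

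All 31 small-subunit genes were open in both replicates. Every member that was not belonged to the large subunit. Rpl36, a core protein of that subunit, had a peak of signal value 8.23 in replicate 1 and none in the IDR list of replicate 2. It had one of 8.36 in the less strict list of replicate 2 and one of 8.59 in the pooled list, so it sat at the weak end of the open members rather than apart from them. The other 3 had no promoter peak in any list, the less strict ones included. Rpl10l is an intronless copy of Rpl10 that is known from male germ cells, and the nearest peak to its starts in the IDR list of replicate 1 was 774712 bp away. Rpl39l, the copy of Rpl39 known from testis, had its nearest peak at 241590 bp in that list and at 102149 bp in the less strict list of replicate 1. Rpl3l, the copy of Rpl3 known from heart and skeletal muscle, had its nearest peak at 3191 bp in both.

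Among the 4 members that carry an l for a close copy, only Rps27l was open. Rps27l, a p53-responsive gene that is widely expressed, had 19.0 in replicate 1 and 21.8 in replicate 2. Its relative Rps27 had 15.6 and 16.6, so the copy was the higher of the pair in both libraries. The open relatives of the closed copies had middling to high values. Rpl10, which is on chromosome X and joins the large subunit at a late step, had 16.5 and 17.6. Rpl3, which reaches towards the peptidyl transferase centre, had 16.3 and 17.2. Rpl39, an X-linked gene of the exit tunnel, had 12.9 and 13.7. The promoters of the closed copies differed among themselves. Rpl10l was CpG-rich (ratio 0.72), Rpl39l had a ratio of 0.55 and Rpl3l one of 0.171. The printed sequence of Rpl39l carries the ETS string in full, and no list had a peak there.

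Pseudogenes had almost no peaks. The mouse genome holds many processed copies of ribosomal protein genes, pasted in from messenger RNA without their promoters, and 293 annotated pseudogenes had an Rp name ending in ps and a number. Of these, 4 (1.37%) were open in replicate 1 and 1 (0.341%) in replicate 2, against 1.98% and 1.05% of all 10236 processed pseudogenes. The 1 open in both was Rpl21-ps1, with 15.3 and 15.7, and its summit was 1031 bp from the annotated start, so the peak only touched the window. Over 2 kb from protein-coding starts the shares were 1.42% against 1.6% in replicate 1, and 0.356% against 0.708% in replicate 2. Few peaks were thus listed at these copies and few at processed pseudogenes as a whole, so their scarcity was not particular to this family.

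Open promoters differed in strength. The deposited signal value of a peak comes without a definition, so ranks and levels are read inside a single list. Means over both replicates served only to pick and order genes, and the stalk genes were also compared between replicates. Of all genes open in both, 64.3% had the higher value in replicate 2, so the lists may differ in scale. Each gene took its highest promoter peak, and the percentile is its rank among all open protein-coding genes of that list. In replicate 1 the 77 open members had a median signal value of 14.9 (interquartile range 12.3 to 17.3), against 12.4 for all open genes. In replicate 2 the 76 open members had a median of 16.2 (13.5 to 18.1), against 13.9. Their median percentile was 69.97 in replicate 1 and 70.2 in replicate 2, or 70.1 ± 0.158 (SD, n = 2). For comparison, CpG-rich open genes had median percentiles of 53.0 and 52.7, the mitochondrial set 63.3 and 58.2, and the proteasome set 77.0 and 76.4. The members ranked above most open promoters but were not the leading set, since the proteasome genes ranked higher in both replicates.

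**Figure D2:**
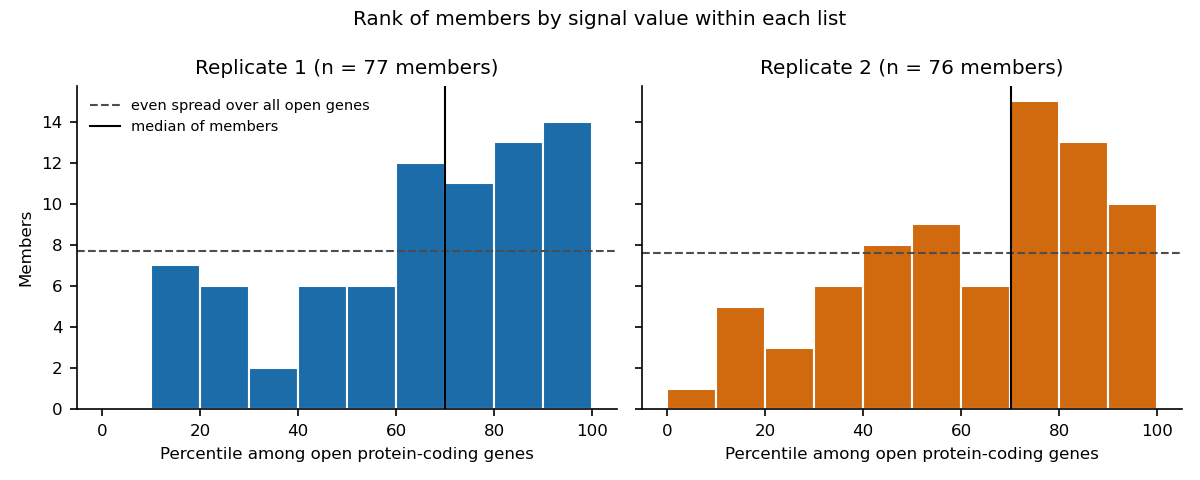
Number of members along the ranking of open protein-coding genes by signal value, for each replicate (bins of 10 percentiles). The dashed line is an even spread and the solid line the members' median, at 69.97 in replicate 1 and 70.2 in replicate 2, and 14 and 10 members were at percentile 90 or higher.

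The members spread over nearly the whole ranking. Of the open members, 14 in replicate 1 and 10 in replicate 2 were at percentile 90 or higher, and 34 and 31 at percentile 75 or higher. At the other end 21 and 23 lay below the median of all open genes. In both replicates alike, 25 members were at percentile 75 or higher, 10 between the median and that level, and 15 below the median. The remaining 26 of the 76 changed between these bands. The 25 highest held 14 genes of the large subunit outside the stalk, the stalk gene Rplp0, and 10 genes of the small subunit. The 15 below the median included Rpl10a, Rpl12, Rpl13a, Rpl18, Rpl19, Rpl35, Rpl4, Rpl41, Rpl7, Rpl7a, Rps10, Rps15a, Rps20 and Rps9. Subunits did not separate in the same way in both libraries. Large-subunit members had median percentiles of 69.5 and 57.4, and small-subunit members 70.0 and 72.5, so a gap appeared in replicate 2 and hardly in replicate 1.

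**Figure D3:**
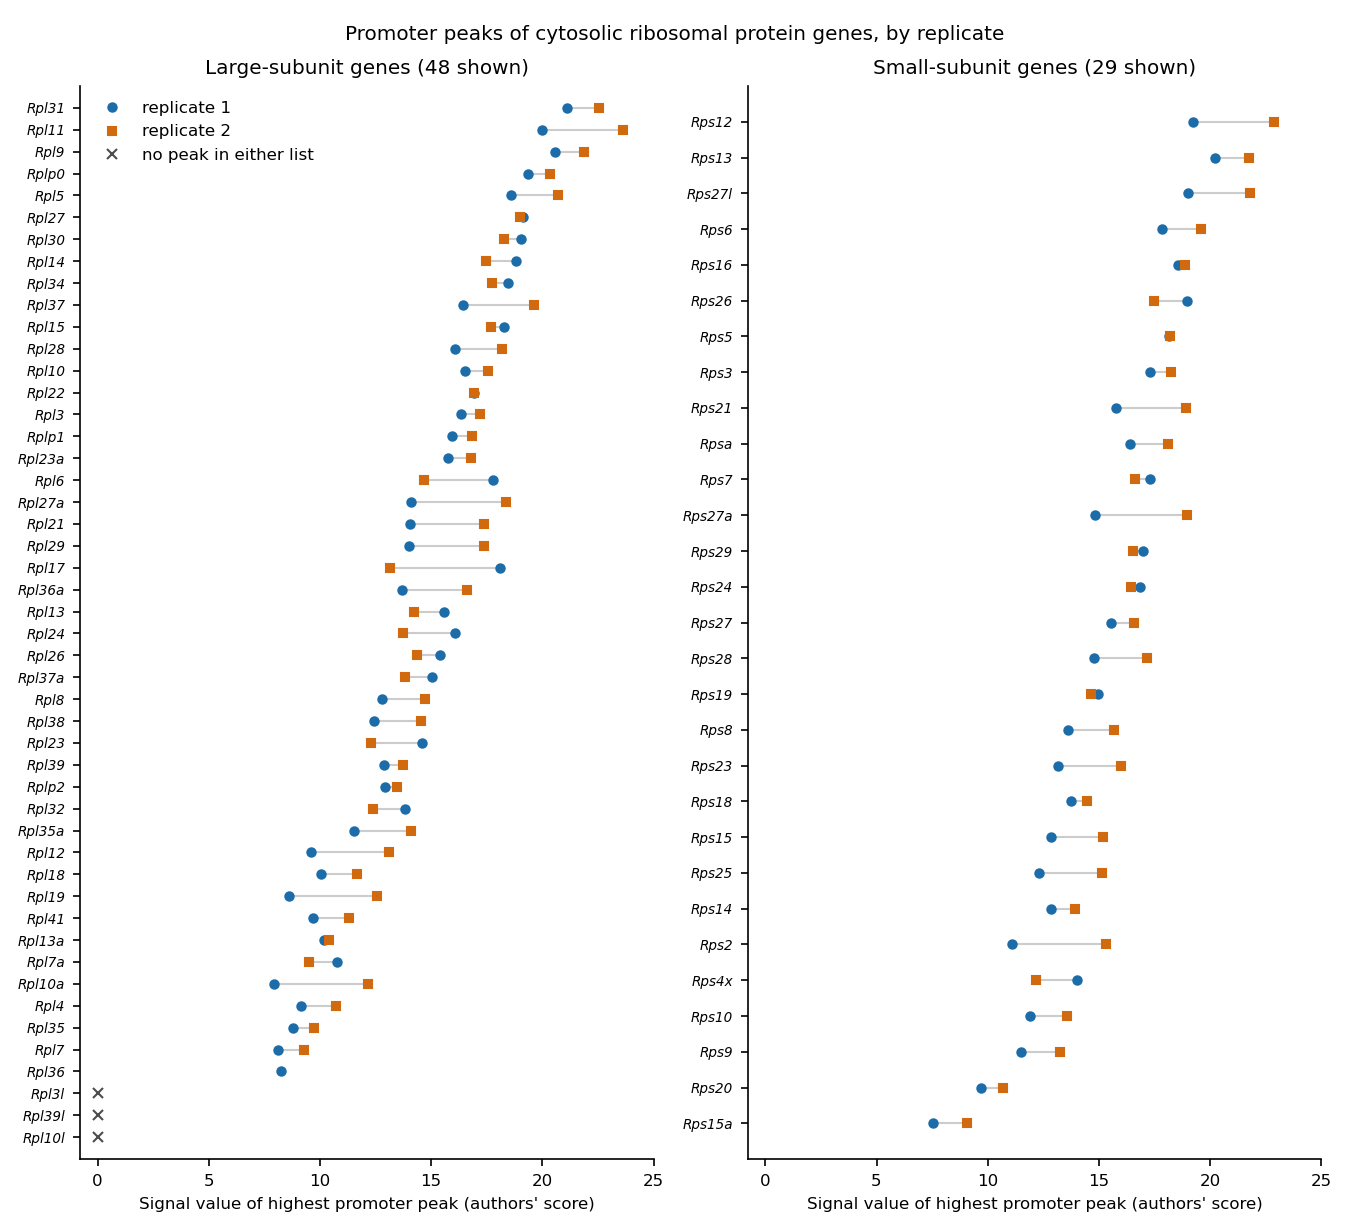
Signal value of the highest promoter peak of 77 of the 80 members, on the horizontal axis, with large-subunit genes on the left and small-subunit genes on the right, ordered by mean. Circles are replicate 1, squares replicate 2, and crosses the 3 members without a peak in either list; Rpl36 has a value in replicate 1 alone, and Rpl31 and Rps12 lead their panels.

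The highest values were shared by both subunits. Rpl31, a protein at the rim of the tunnel through which the new chain leaves, had 21.1 in replicate 1 and 22.5 in replicate 2. Its peak in the pooled list lay at chr1:39367634-39368114 and its summit 25 bp upstream of the reference start, within the printed sequence. Rpl11 had 19.97 and 23.6, and Rpl5 had 18.6 and 20.7. These proteins travel with the 5S ribosomal RNA and are known to bind the p53 regulator Mdm2 when ribosome assembly is disturbed, and both were above percentile 90 in each replicate. Rpl9, near the base of the stalk, had 20.6 and 21.9, and Rpl27 had 19.1 and 18.98. Among small-subunit genes, Rps12 had 19.3 and 22.9, and Rps13 had 20.2 and 21.7. Rps6, the target of the S6 kinases downstream of mTORC1, had 17.9 and 19.6. With Rps27l and Rplp0 these are the 10 members of highest mean signal.

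The stalk of the large subunit recruits the elongation factors, and its 3 genes were open at unlike strengths. Rplp0, which anchors the stalk, had 19.4 and 20.3. Rplp1 had 15.95 and 16.8, and Rplp2 had 12.9 and 13.5. The order was the same in both replicates, and the gaps were larger than the difference between replicates of any of the 3. Rpsa, a small-subunit gene whose protein is also known as a laminin receptor, had 16.4 and 18.1.

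The lowest members open in both replicates were also of both subunits. Rps15a, of the small subunit, had 7.54 and 9.09, Rpl7 had 8.10 and 9.28, and Rpl35, at the exit of the tunnel, had 8.78 and 9.72. No peak covered the reference start of Rpl35 in either replicate, and the nearest were 303 and 320 bp away. Its summit in the pooled list lay 44 bp from another Rpl35 start and 182 bp from a start of Arpc5l. Rpl4, whose protein lines the exit tunnel, had 9.15 and 10.7. These 4 were picked by mean signal over both libraries, so their place below the 10 highest members follows largely from that choice.

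Replicates ranked the members alike. Over the 76 members open in both, Spearman's rho between replicates was 0.832 for the signal values and Pearson's r of their log2 values 0.86, against 0.818 and 0.821 over all 8725 genes open in both. These are descriptions over genes that share libraries. The 5 members whose percentile differed most were all lower in replicate 2. Rpl17, a gene of the exit tunnel, fell from percentile 89.1 to 43.2. Rpl23 went from 67.95 to 35.6, Rpl6 from 87.9 to 57.3, Rpl24, which bridges the subunits, from 78.5 to 48.6, and the X-linked Rps4x from 63.4 to 34.4. All 5 had peaks in both lists, and their signal values lay between 12.2 and 18.1.

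Peaks sat on the start sites. The summit of the members' highest peak lay at a median of 21 bp upstream of the reference start in replicate 1 and 26 bp upstream in replicate 2, against 47 and 50 bp upstream for all open genes. It was within 100 bp at 59 of 77 members (76.6%) and 54 of 76 (71.1%), where 51.4% and 55.9% of all open genes had such a summit. The mitochondrial set had 74.0% and 75.4%, so closeness to the start was not particular to the cytosolic genes. Summits of the replicates differed by a median of 11 bp, and 64 of 76 by no more than 20 bp. The exceptions over 100 bp were Rpl13a, Rpl19, Rpl39 and Rplp2. There the replicates had different summits highest, and both summits lay inside the gene's peak in the pooled list. Peaks had a median width of 569 bp in replicate 1 and 533.5 bp in replicate 2, against 542 and 508 bp for all open genes.

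**Figure D4:**
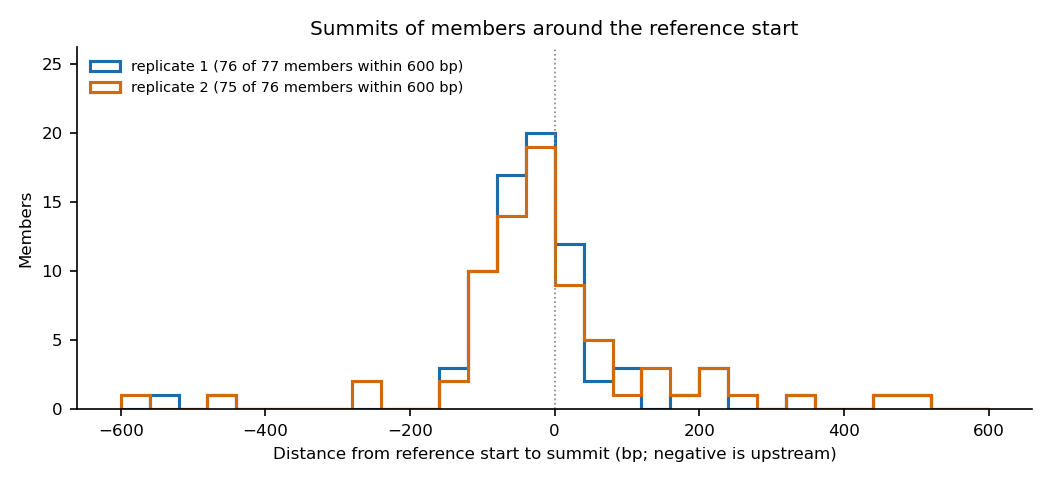
Distance from the reference start to the summit of the highest promoter peak, in bp, in bins of 40 bp for both replicates, with upstream to the left. Most members lie within 100 bp of the start, with 76 of 77 and 75 of 76 inside the 600 bp shown.

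Summits far from the reference start mostly lay near another annotated start of the gene. For Rpl35a the summit in the pooled list lay 554 bp upstream of the reference start and 2 bp from another start of the same gene. For Rps25 it lay 493 bp downstream, 28 bp from another Rps25 start and 32 bp from a start of Trappc4. For Rps27a, which is made as a fusion with ubiquitin, it lay 232 bp downstream and 5 bp from another start. For Rps14 the distance was 1637 bp, with another start of the gene 6 bp from the summit. Rpl13a and Rpl4 had no start of their own nearby. The summit of Rpl13a was 268 bp upstream of its nearest start, with no start of another gene within 1 kb. That of Rpl4 was 456 bp from any Rpl4 start and 6 bp from a start of Zwilch, a kinetochore gene that runs the other way. The value of Rpl4 thus came from a peak centred on a start of its neighbour. In replicate 2 no listed peak covered the reference start of Rpl4, and the nearest was 183 bp away.

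Neighbours of this kind were seen at 8 members, counted between reference starts alone. Each had a protein-coding gene starting on the other strand within 1 kb upstream. The pairs were Rpl12 with Lrsam1, Rpl15 with Nkiras1, Rpl35a with Iqcg, Rpl4 with Zwilch, Rpl7a with Med22, Rpl9 with Lias, Rps18 with Vps52 and Rps28 with Ndufa7. The starts were between 10 bp apart at Rps28 and 828 bp at Rpl35a. A peak there cannot be assigned to 1 of the 2 genes. These 8 had median percentiles of 51.5 and 53.6, and the members without such a neighbour 71.1 and 72.2. Members with a neighbour, counted this way, thus ranked lower in both lists. The members without one included Rps25, Rps27a and Rpl35. Their summits in the pooled list lay 32, 73 and 182 bp from a start of Trappc4, Clhc1 and Arpc5l, in that order. Small nucleolar RNAs, guides for the chemical modification of ribosomal RNA, lay inside 29 members, 56 in all and up to 5 in Rpl4. Members that host them had median percentiles of 68.0 and 65.8, and the others 70.6 and 72.5.

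Fixed strings were searched on both strands from 250 bases before to 50 after the reference start in all genes. None of the strings contains another, though neighbouring matches can overlap. The members differed from other genes most at CTCGCGAG, the ZBTB33 string. It was in 9 members (11.2%), against 1.19% of all genes, 2.26% of genes open in both replicates and 2.81% of those that were also CpG-rich. They included Rpl10a, Rpl17, Rpl26, Rpl27a, Rpl4, Rps28 and Rps6, and in 8 of the 9 it began within 100 bases before to 50 after the start. In the mitochondrial and proteasome sets the share was 3.85% and 5.13%. The 9 were not alike in strength. Rpl10a had 7.91 in replicate 1 and Rpl17 had 18.1, and their median percentiles were 69.4 and 54.5.

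The ETS string CCGGAAG was in 25 members (31.2%), against 11.2% of all genes and 24.3% of open CpG-rich genes. The mitochondrial set had it at 37.2% and the proteasome set at 30.8%. Its matches lay at a median of 47.5 bases before the start, and in Rpl11, Rpl31 and Rps27l it lay just after it, as printed above. The 24 open members with it had median percentiles of 78.9 and 77.1, and the 52 without it 68.7 and 67.0. The core of the cyclic AMP response element, TGACG, was in 38 members (47.5%), against 23.8% of all genes and 40.8% of open CpG-rich genes. Rpl9 carries it at 4 places in the searched window. NRF1's GCGCATG was in 9 members (11.2%), against 4.98% and 8.96%, and ZFP143's CTACAATTC in 2 (2.5%), Rpl23a and Rps27a, against 0.492% and 0.806%.

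The SP/KLF and NFY strings were less common in the members than in open CpG-rich genes, and the E-box and TATA strings were not. The YY1 string had a similar share in both. GGGCGG, read by SP and KLF factors, was in 38 members (47.5%), against 45.5% of all genes and 73.9% of open CpG-rich genes. Members with it had median percentiles of 63.4 and 62.7, and those without it 76.4 and 74.6. CCAAT, the NFY string, was in 26 (32.5%), against 38.4% and 42.0%. YY1's AAGATGGC was in 4 (5.0%), Rpl18, Rpl23a, Rps15a and Rps27, against 3.09% and 6.49%. From 100 bases before to 50 after the start it was again in 4 members, against 4.73% of open CpG-rich genes. The E-box CACGTG, read by MYC and MAX, was in 10 (12.5%), against 7.74% and 11.5%. These 10 had median percentiles of 46.2 and 42.1, and the other open members 72.5 and 72.7. TATAAA was in 8 of 80 members, a share below the 12.6% of all genes and above the 5.51% of open CpG-rich genes. A string is a description of the letters in the window, and binding was not measured.

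**Figure D5:**
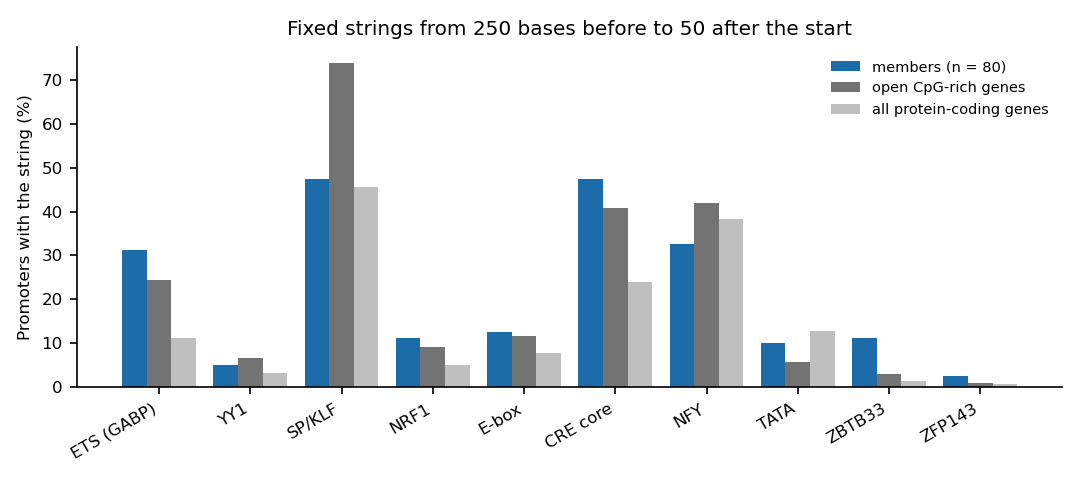
Percentage of promoters, on the vertical axis, with each fixed string from 250 bases before to 50 after the reference start, for the 80 members, the open CpG-rich genes and all protein-coding genes. The ZBTB33 string stands at 11.2% in the members against 2.81% and 1.19%, and the SP/KLF string at 47.5% against 73.9% and 45.5%.

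Pyrimidine tracts at the start were looked for next, since TOP messages begin with one. At the reference start, a C followed by at least 4 pyrimidines was found in 9 members (11.2%), against 2.25% of all genes. They included Rpl32, Rpl36, Rpl37, Rpl37a, Rpl4, Rps2, Rps21 and Rps24, and the longest run after the C was 16 pyrimidines in Rps24. Annotated starts are often some bases away from the place where transcription begins, so nearby bases were searched too. Within 10 bases of the reference start, such a run was found in 36 members (45.0%), against 30.6% of all genes. The mitochondrial set had 34.6% and the proteasome set 33.3%. A wider search was chosen after seeing the data. It took a C with at least 6 pyrimidines after it, anywhere from 20 bases before to 50 after the start. This was found in 46 members (57.5%), against 29.4% of all genes and 26.3% of CpG-rich genes. The mitochondrial set had 26.9% and the proteasome set 23.1%, both close to all genes. These shares are descriptions and were not tested.

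Open sites around the members were also counted. Distal peaks, with a summit over 1 kb from every annotated start, were counted within 50 kb. Members had a mean of 1.74 in replicate 1 and 0.713 in replicate 2, against 1.17 and 0.433 for all genes. None was found at 22.5% and 53.8% of members, against 48.6% and 72.2% of all genes. The highest count in replicate 1 was at Rpl5, with 8, against 3 in replicate 2. In replicate 2 the highest count was at Rps14, with 6, and Rps14 also had 6 in replicate 1. CpG-rich genes as a whole had 1.39 and 0.509, and the mitochondrial set 1.24 and 0.462. The proteasome set, with 1.69 and 0.667 and none at 33.3% and 53.8% of its genes, was close to the members in its means, so nearby distal peaks were not particular to them.

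Other genes of the same machinery were taken from fixed lists. The background for all these lists was 47.1% of protein-coding genes open in replicate 1, 40.3% in replicate 2 and 39.8% in both. Of CpG-rich genes, 66.5% were open in both. The ribosomal proteins that the naming rule leaves out were open at 7 of 8 in both replicates. Rps3a1 had 15.8 and 17.7, Rpl22l1 had 19.3 and 18.3, Rpl36al had 14.2 and 18.4, and Rpl7l1 had 13.9 and 14.3. The scaffold protein gene Rack1 had 11.0 and 12.8. Fau, made as a fusion with a ubiquitin-like protein, had 9.24 and 10.2, and Rps27rt had no peak. Fau sat with the low members, whereas the ubiquitin fusion gene Rps27a had 14.8 and 18.97.

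Genes that build ribosomes were open at 44 of 44 in replicate 1 and 41 in replicate 2. Their median percentiles of 67.8 and 67.7 were close to those of the members. Brix1, needed for assembly of the large subunit, had 23.6 and 21.8, and Efl1, a GTPase that releases an assembly factor from it, had 20.6 and 21.3. Heatr3, Tsr1 and Tsr2 were open in replicate 1 alone. Translation factors and other TOP messages were open at 17 of 17 and 16 of 17 genes, at the lower median percentiles of 51.9 and 53.5. Eif3h, of the initiation factor eIF3, had 21.4 and 20.1, and Naca, which binds new chains, had 16.8 and 18.1. Eif3l was open in replicate 1 alone.

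All 13 genes that control TOP translation were open in both replicates, against 39.8% of all genes and 66.5% of CpG-rich genes. Their median percentiles were 52.9 and 55.1. Eif4ebp2, an inhibitor of the cap-binding protein, had 18.0 and 20.99, and Cnbp, which binds TOP messages, had 13.9 and 19.2. Of 17 genes for factors of these promoters, 16 were open in replicate 1 and 15 in replicate 2. Nfyb had 20.2 and 23.7 and Nfyc had 20.2 and 17.5, Gabpb1 had 8.96 in replicate 1 alone, and Myc had no IDR peak in either.

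Depth could not be read from the peak lists. Replicate 1 listed 34409 peaks and replicate 2 listed 18367, and the less strict lists 56147 and 34900. Of 12 neutrophil markers, 10 were open in replicate 1 and 4 in replicate 2, where 47.1% and 40.3% of all genes were. In both replicates 33.3% of these markers were open, against 39.8% of all genes. The open ones had low median percentiles of 9.88 and 19.3. Mmp8 (13.9 and 11.6) and Ncf4 (9.17 and 10.8) were highest by mean signal. Ly6g, the defining surface marker, had no peak in any list. Of 5 B cell markers, 5 and 3 were open, at the higher median percentiles of 38.5 and 27.7. They were led by Pax5 (11.2 and 14.0) and Ms4a1 (13.0 and 11.4). Of 5 T cell markers 1 was open in both, Cd3d (16.9 and 17.8). Of 5 platelet markers 1 was open in replicate 1 alone, and none of 5 erythroid or 5 monocyte markers was open in either replicate, though the pooled list had 1 of each. Ribosomal protein promoters are not particular to neutrophils, and the part that other cells had in the members' peaks was not tested.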

How the data were processed

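ATAC-seq peak lists of 2 neutrophil libraries on mm10 were used with GENCODE M21 on GRCm38.p6, the same build. Per the file headers, the authors gave each replicate a list thresholded on IDR and a less strict one, and made further lists from both replicates. The deposited signal value is a score without a stated definition, and the deposited −log10 p is the authors' value for each peak. The sources used here do not name the aligner, peak caller or transposase shift. Depth is unknown, so no interval for it is given.

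Peaks were assigned to genes by overlap with 1 kb on either side of any annotated start, with Python 3.11.15 and pandas 2.3.3, in code tested on simulated peaks. The reference start was that of the best-supported coding transcript. No p was computed: there is 1 group. Named were members not open in both replicates, the 10 highest and 5 lowest by mean signal, the stalk genes, Rpsa, the copies with an l and their relatives, the 5 least alike between replicates, and for lists the 2 highest and up to 3 others not open. Other members are named where a string, start or neighbour singles them out. Some genes named by this rule are not reported here: they are left out of the text and of the plot by gene, but stay in the counts. Members and lists were chosen with earlier results of these data known. Alternatives changed the window, start, list and ranking measure.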

Additional observations from a re-analysis of the deposited data

How the results depend on the processing

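The 4 counts of open members stayed within 1.5 times their values under every alternative run, which covered windows of 500 bp and 2.5 kb, other start sites, summits in place of overlap, stronger peaks and other lists. With 80 members in all, only a fall could have taken a count outside that range. The counts for replicate 1, replicate 2 and both were lowest with peaks at or above the list's median signal value. They were 70, 68 and 66 members, against 37.4%, 31.5% and 30.4% of all genes. Leaving out replicate 1 or replicate 2 repeats the values of the other replicate alone, as given above. The count of open members was then 76 to 77, the median percentile 69.97 to 70.2 and the median summit offset -26 to -21 bp. The median percentile of 70.09 became 71.54 in the conservative IDR list, 74.4 in the less strict lists, 69.93 among open CpG-rich genes, 68.82 by −log10 p and, chosen after seeing the data, 71.63 without members that have a divergent neighbour. These shifts are larger than the SD of 0.158 between replicates and small beside the distance to 50. The median summit offset of -23.5 bp became -7.5 bp from the 5'-most start. From 100 bases before to 50 after the start, a smaller window by construction, NRF1 strings were in 4 members (5.0%), E-boxes in 4 (5.0%) and the CRE core in 25 (31.2%), against 6.24%, 7.10% and 28.8% of open CpG-rich genes and 3.28%, 4.73% and 16.2% of all genes, so the NRF1 and E-box shares fell below those of open CpG-rich genes. TOP-like starts rose from 9 to 34 members (42.5%) when any annotated start was allowed, where all genes rose from 2.25% to 8.52%. They rose to 46 (57.5%, against 29.4% of all genes) with the wider search, which was chosen after seeing the data. No paired analysis was possible because the series has 1 group. The lists hold no read counts, so a missing peak, such as that of Rpl36 in replicate 2, shows only that none was listed.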
